A study of Mus musculus with 23 samples.

Results

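The genes considered here encode the machinery that moves, reads or modifies nucleosomes: CHD, SMARC and INO80 remodellers, ARID subunits, bromodomain proteins, deacetylases, acetyltransferases, PHD-finger proteins and chromobox proteins. They were taken by symbol from the peaks to which the authors gave a gene name, with 1 peak per gene and day, the one with the highest mean signal. This gave 81 genes of the 11533 that the authors named on any day. There were 79, 72 and 72 members on days -2, -1 and 0, and 69 of them had a named peak on all 3 days. The symbol rule also takes in 4 antisense RNA genes (Brd3os, Chd3os, Ino80dos and Phf2os1) and Phf5a, which encodes a splicing factor subunit. The assay was ATAC-seq, which uses a transposase to cut and tag open DNA, and the cells were 3T3-L1, an established line of mouse preadipocytes. Every group received 50 nM siRNA by reverse transfection while sub-confluent: siRNA against Kdm5c, or a non-targeting siRNA called scramble. Libraries were made 24, 48 and 72 hours later, on days -2, -1 and 0 of the differentiation schedule, with 4 libraries per siRNA and day except 3 for Kdm5c siRNA on day 0. No untransfected cells are among the groups, all cells belong to 1 line, and nothing in the labels says whether replicates were separate cultures, so the p-values cover the spread among these libraries alone, and that spread may be technical.

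Remodellers of the SWI/SNF (BAF), ISWI, CHD and INO80 families use ATP to slide, evict or exchange nucleosomes. Bromodomains bind acetylated lysines of histones, PHD fingers and chromodomains bind methylated or unmethylated histone tails, and the acetyltransferases and deacetylases write and remove acetyl marks. Kdm5c encodes an X-linked demethylase that removes methyl groups from lysine 4 of histone H3, a mark of active promoters that several PHD fingers read. Accessibility at a promoter describes how open the DNA of that gene is and not how much of its protein the cell holds.

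Nuclear counts in peaks were 781309 to 3345583 per library, and mitochondrial peaks took 56.4% to 93.2% of all counts. This share differed by day and arm: it was 56.4% to 70.02% with Kdm5c siRNA and 70.4% to 76.3% with scramble on day -2, 87.6% to 92.6% and 90.9% to 93.2% on day -1, and 78.8% to 86.8% and 87.5% to 91.4% on day 0. The arms did not overlap on days -2 and 0, and the part of this share in the results below was not tested. The authors' peak tables of days -2, -1 and 0 listed 84019, 31970 and 37054 peaks, each with boundaries of its own. The peak at Kdm5c itself had 49.3 ± 16.95, 36.2 ± 16.3 and 49.5 ± 5.88 normalised counts with Kdm5c siRNA on days -2, -1 and 0, and 60.8 ± 16.6, 33.4 ± 2.17 and 44.4 ± 5.95 with scramble (SD, n = 4, or 3 for Kdm5c siRNA on day 0). An siRNA acts on the transcript, and accessibility at the gene is no measure of knockdown. Of 9 preadipocyte or fibroblast markers, 7, 5 and 5 had a named peak on the 3 days, among them Col1a1, Col1a2, Pdgfrb and Zfp423 on every day. Of the 5 adipocyte markers Lep had one on days -2 and 0, and none of the 3 epithelial markers did on any day. Of 4 macrophage or leukocyte markers Cd14 had one on days -2 and 0, and of 3 endothelial markers Kdr had one on every day and Cdh5 on day -2.

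Promoters of 6 members are shown because later results turn on them: Brpf1 and Smarca2 had the most accessible peaks, Smarcad1 and Kat2b changed between days, and Phf12 and Baz1b were among the members with the smallest siRNA p-values. Each line gives the 250 bases before the RefSeq start, 5′ to 3′ on the gene's strand, in build GRCm38.p6, which for all 6 genes is the plus strand. Capitals mark matches on either strand to GGGCGG (the GC box of SP factors), CCAAT (bound by NF-Y), CCGGAAG (the ETS core), CACGTG (an E-box) and TATAAA. No match overlapped another in these windows.
Brpf1, chr6:113306887-113307136: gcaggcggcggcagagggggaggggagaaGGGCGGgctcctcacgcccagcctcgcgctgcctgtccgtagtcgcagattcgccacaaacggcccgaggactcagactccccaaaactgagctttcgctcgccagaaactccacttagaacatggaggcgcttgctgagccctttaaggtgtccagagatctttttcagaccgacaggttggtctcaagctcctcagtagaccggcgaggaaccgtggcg
Smarca2, chr19:26604910-26605159: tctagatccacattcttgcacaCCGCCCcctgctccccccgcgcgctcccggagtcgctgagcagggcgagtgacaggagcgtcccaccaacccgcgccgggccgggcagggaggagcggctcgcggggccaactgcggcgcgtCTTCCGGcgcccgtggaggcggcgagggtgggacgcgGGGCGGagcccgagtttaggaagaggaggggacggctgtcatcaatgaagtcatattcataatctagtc
Smarcad1, chr6:65042341-65042590: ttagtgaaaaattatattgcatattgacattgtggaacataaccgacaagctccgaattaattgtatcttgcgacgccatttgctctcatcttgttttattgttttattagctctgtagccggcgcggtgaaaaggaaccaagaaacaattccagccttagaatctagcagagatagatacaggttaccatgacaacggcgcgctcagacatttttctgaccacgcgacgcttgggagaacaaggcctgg
Kat2b, chr17:53566721-53566970: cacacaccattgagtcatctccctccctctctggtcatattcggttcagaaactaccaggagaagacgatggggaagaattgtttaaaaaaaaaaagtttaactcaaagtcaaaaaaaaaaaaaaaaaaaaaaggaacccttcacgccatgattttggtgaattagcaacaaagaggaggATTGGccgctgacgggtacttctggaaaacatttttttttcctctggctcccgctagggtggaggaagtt
Phf12, chr11:77982566-77982815: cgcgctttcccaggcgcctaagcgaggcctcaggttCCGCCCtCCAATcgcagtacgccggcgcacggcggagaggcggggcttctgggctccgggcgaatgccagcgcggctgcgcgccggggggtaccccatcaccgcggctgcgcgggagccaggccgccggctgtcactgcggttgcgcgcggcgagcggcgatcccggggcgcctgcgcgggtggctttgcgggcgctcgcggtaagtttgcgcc
Baz1b, chr5:135187073-135187322: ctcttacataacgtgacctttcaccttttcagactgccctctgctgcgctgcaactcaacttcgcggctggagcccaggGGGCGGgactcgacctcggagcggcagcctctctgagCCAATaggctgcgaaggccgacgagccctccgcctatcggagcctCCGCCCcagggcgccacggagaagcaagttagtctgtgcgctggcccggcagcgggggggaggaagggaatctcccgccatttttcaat

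These windows ranged widely in composition. Kat2b held 40.8% G and C with 6 CpG, and Smarcad1 43.2% with 13 CpG, while Phf12 held 76.0% with 41 CpG. Of the 81 members, 60 had such a window on the chromosome of their peak, and the peak covered the start in 49. Members' windows had a median of 64.0% G and C and 20 CpG, against 60.8% and 16 in 8565 other named genes and 52.4% and 6 in all 32851 windows of the table. GGGCGG occurred in 48 of the 60 members' windows, in 62.3% of those of other named genes and in 32.7% of all windows. CCAAT occurred in 25 of 60, 36.1% and 33.8%. CCGGAAG occurred in 5.00% of members' windows, 13.4% of those of other named genes and 6.91% of all windows. CACGTG occurred in 6.67%, 8.70% and 6.02%, and TATAAA in 5.00%, 5.91% and 12.4%. These are matches of letters and not tests of binding.

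Most of the members' peaks with a listed RefSeq start covered it: 48 of 59, 43 of 54 and 46 of 54 on days -2, -1 and 0. On the same days 75 of 79, 68 of 72 and 68 of 72 lay within 1 kb of one or the other end of the gene's span. The peaks of Smarcal1, Sirt4 and Kat5 lay inside the span but at a listed start, which they covered on day -2. Those named for Baz2b and Smarcd2, and on day -2 for Cbx7 and Smarcd3, lay several kb or more from the listed start of their gene, with centres at -84190.5, -5255.5, -38410 and -22392.5 bases from it on day -2. The peak named for Sirt1 lay outside the Sirt1 span and within 1 kb of an end of Dnajc12, and that of Baz2b within 1 kb of an end of Marchf7. Another coding gene ended within 1 kb of the peak for 22, 21 and 20 members, for example Atp5b beside Baz2a, Cpne9 beside Brpf1 and Bap1 beside Phf7. Counts at such a peak cannot be given to either gene alone. The median peak of a member was 826, 770 and 834 bases wide, against 703, 655 and 700 for other named genes.

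Accessibility per kb of peak differed widely between members and kept much the same leaders on all 3 days. Normalised counts are raw counts scaled to the mean effective library size of that day, so levels are compared within a day. Brpf1, the scaffold of the MOZ and HBO1 acetyltransferase complexes, had the highest level, with 366.5, 225.1 and 323.1 normalised counts per kb on days -2, -1 and 0. Smarca2, the BRM ATPase of the BAF complex, followed with 260.7, 163.8 and 275.9, and then Chd6 with 190.3, 152.1 and 189.9. On day -2 the next were Brd2, a BET protein gene (179.3), Smarcal1, an annealing helicase gene (168.7), and Cbx5, which encodes HP1 alpha (166.1). The Brd2 peak was then only 259 bases wide, where the median member's was 826, and 2 peaks without a name also lay over a listed Brd2 start. Day -1 had Cbx5 (117.4), Chd8 (116.0) and Phf13 (112.0) in these places, and day 0 had Brd2 (151.4), Cbx5 (150.5) and Smarcad1 (147.9). The median member had 93.8, 65.3 and 82.4 normalised counts per kb, against 86.6, 65.6 and 79.0 for other named genes.

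At the other end, Phf10, a subunit of the PBAF complex, had the lowest level on every day, with 20.6, 14.6 and 10.4 normalised counts per kb. Hdac8, a class I deacetylase on the X chromosome, had 43.5 and 38.6 on days -2 and -1 and no named peak later. On day -2 Cbx7, a Polycomb chromobox gene, had 53.7 and Brd8, of the TIP60 complex, had 55.0. Cbx1, which encodes HP1 beta, had 39.1 and Ino80e 43.4 on day -1. For day 0 the values were 39.5 for Brd8 and 41.3 for both Ino80e and Phf11d.

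**Figure D1:**
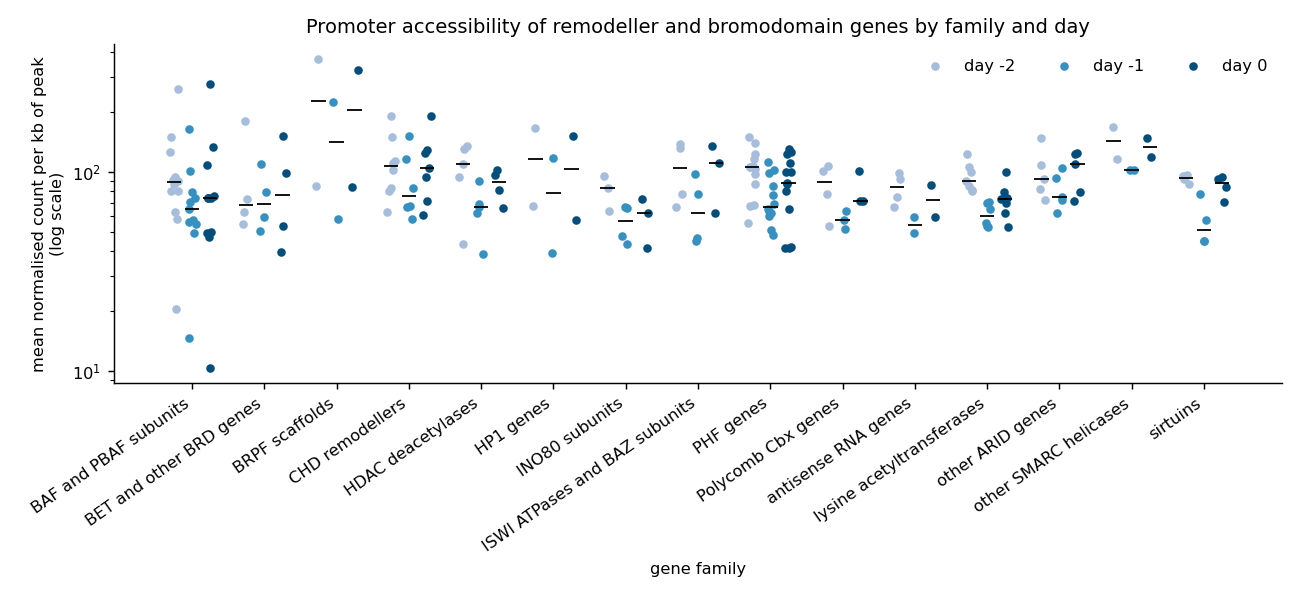
Mean normalised count per kb of peak (log scale) of every member peak, by gene family and day, over the libraries of both siRNAs of that day; each point is 1 gene and black bars are family medians. Brpf1 lies at the top (366.5 on day -2) and Phf10 at the bottom on each day (20.6, 14.6 and 10.4).

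Of the ATPases and enzymes chosen as 1 central member per family, Smarca4, the BRG1 ATPase of BAF, had 80.1, 55.9 and 73.7 normalised counts per kb on days -2, -1 and 0. Smarca5, the ISWI ATPase, had 132.3, 77.5 and 134.7, above the members' upper quartile of 114.3 and 109.3 on days -2 and 0. Chd4, the ATPase of the NuRD complex, had 112.7, 66.8 and 128.1, the last at a peak only 227 bases wide, and Ino80 had 95.3, 65.7 and 73.2. Among the enzymes, Kat5, the TIP60 acetyltransferase, had 105.7, 65.0 and 78.9, Hdac3, of the NCoR complex, had 93.8, 62.5 and 65.6, and Sirt1 had 92.2, 57.4 and 91.8 at its peak outside the gene. The demethylase gene Phf8 had 97.4, 68.9 and 80.4.

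Not every gene of these families had a named peak. Of 106 listed family genes, 77 had one on at least 1 day and 29 had none. For 8 of the 29 a peak over a RefSeq start carried the name of another gene, as at Brd9 (named Trip13), Cbx3 (Hnrnpa2b1) and Sirt3 (Psmd13). For 6 of them a start lay only under peaks without a name, as at Smarcc1, Brd3 and Phf21a. A further 12 had a start in the table and no peak over it on any day, and 3 had no start in the table. Of the 12 members with a named peak on only 1 or 2 days, 6 had it on day -2 alone (Cbx7, Chd3os, Chd7, Phf19, Phf2os1 and Smarcd3), the day with the most peaks. In all, members took 0.300 ± 0.0107%, 0.382 ± 0.00742% and 0.395 ± 0.0256% of nuclear counts with Kdm5c siRNA on days -2, -1 and 0, and 0.293 ± 0.0112%, 0.383 ± 0.00768% and 0.396 ± 0.00768% with scramble (SD, n = 4, or 3 for Kdm5c siRNA on day 0). The arms overlapped on each day. All peaks with a gene name took 34.5%, 44.7% and 45.5% of nuclear counts with Kdm5c siRNA and 34.6%, 44.6% and 44.7% with scramble. Of the counts in those peaks, members held 0.869%, 0.854% and 0.867% with Kdm5c siRNA and 0.848%, 0.860% and 0.885% with scramble.

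The first comparison asks whether siRNA against Kdm5c changed the openness of the members' peaks. No member passed the test on any day. By edgeR's quasi-likelihood F test, with Benjamini-Hochberg adjustment over all peaks of the day, 0 of 77, 0 of 69 and 0 of 72 members tested on days -2, -1 and 0 were called at an adjusted p of 0.05, and DESeq2 called 0 on each day. Among all peaks tested, 0.00404%, 0% and 0.00352% were called, so few calls were made anywhere. Cbx7 and Chd7 on day -2 and Arid1a, Hdac8 and Ino80dos on day -1 had too few counts to be tested. At an unadjusted edgeR p of 0.05, day -2 had 2 members higher and 1 lower with Kdm5c siRNA, where 2.32% of all peaks were higher and 2.31% lower at that level. Day -1 had 1 higher and 3 lower, against 2.55% and 2.82% of all peaks. Day 0 had 0 higher and 1 lower, against 2.67% and 3.32%. Both directions together made up 3.90%, 5.80% and 1.39% of members on the 3 days. Of all peaks 4.63%, 5.38% and 5.99% passed, and of the named genes at 1 peak each 4.32%, 5.28% and 4.79%.

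The members' fold changes were centred near 0. Their median log2 fold change, Kdm5c siRNA over scramble, was 0.04, -0.003 and -0.04 on days -2, -1 and 0, against 0.03, -0.0004 and -0.01 for other named genes. Members between the 5th and 95th percentile spanned -0.30 to 0.37, -0.43 to 0.33 and -0.39 to 0.26, and other named genes -0.33 to 0.46, -0.40 to 0.44 and -0.45 to 0.39. A change of over 0.5 in size was seen in 3, 2 and 3 members (3.90%, 2.90% and 4.17%), against 5.79%, 6.34% and 6.32% of other named genes.

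**Figure D2:**
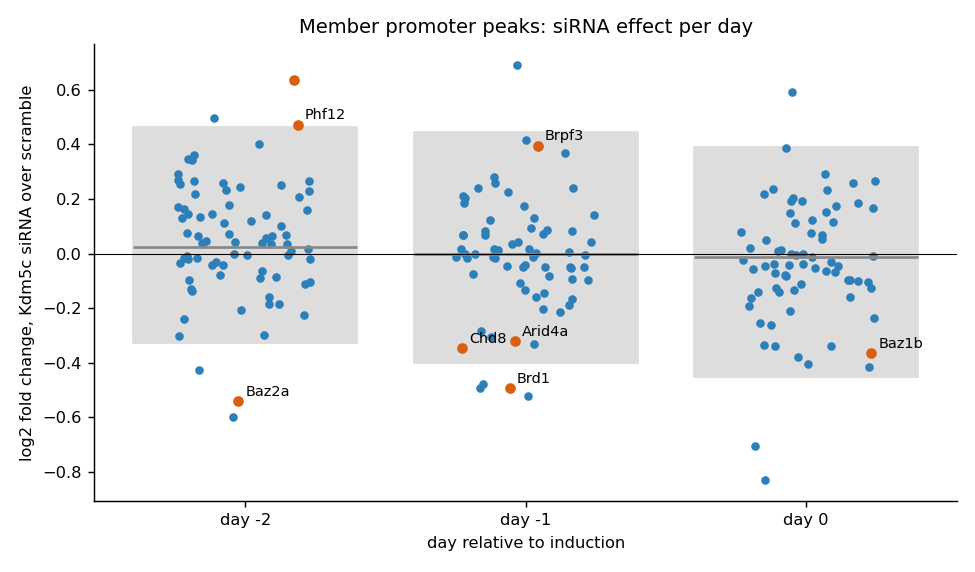
Log2 fold change of each member peak, Kdm5c siRNA over scramble, on the 3 days; each point is 1 gene, orange points have an unadjusted edgeR p under 0.05, and those described in the text are named. Grey boxes span the 5th to 95th percentile of other named genes (-0.33 to 0.46, -0.40 to 0.44 and -0.45 to 0.39) with their median as a line; most members lie inside them.

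On day -2, 24 hours after transfection, Baz2a had the smallest p. This gene encodes a subunit of the nucleolar remodelling complex that silences ribosomal genes, and its peak at chr10:128091014-128091909 is shared with Atp5b. Its 4 libraries with Kdm5c siRNA had 45.9, 49.0, 45.8 and 53.9 normalised counts, against 70.8, 76.1, 76.95 and 60.3 with scramble. The arms did not overlap, as in 2.87% of all peaks tested that day. The log2 fold change was -0.54 (SE 0.20, edgeR adjusted p = 0.98). On day -1 the difference was 0.24, and on day 0 no peak carried the name.

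Phf12, which encodes a PHD-finger subunit of a SIN3 deacetylase complex, had 73.1, 71.7, 74.5 and 104.2 normalised counts with Kdm5c siRNA on day -2, against 63.3, 74.8, 43.4 and 53.1 with scramble. One scramble library lay above 3 of those with Kdm5c siRNA, so the arms overlapped, and the log2 fold change was 0.47 (SE 0.19, edgeR adjusted p = 0.98). Also among the 8 smallest p-values on day -2 were those of Arid3a (log2 fold change 0.50), Cbx2 (0.40), Chd4 (0.26), Ino80 (0.24) and Smarca4 (-0.30), each with overlapping arms and an edgeR adjusted p of 0.98. Leaving out 1 library gave 0.31 for Phf12 without Kdm5c siRNA replicate 4, 0.27 for Arid3a without scramble replicate 3, 0.24 for Cbx2 without Kdm5c siRNA replicate 2, 0.17 for Chd4 without scramble replicate 3 and 0.15 for Ino80 without scramble replicate 4. Arid3a was also at 0.78 without scramble replicate 1, and Cbx2 at 0.26.

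On day -1, Brd1, a scaffold of the HBO1 acetyltransferase complex, had 34.0, 42.9, 34.4 and 32.6 normalised counts with Kdm5c siRNA, against 53.7, 41.9, 50.4 and 55.6 with scramble. All but 1 library of each arm kept apart, and the log2 fold change was -0.49 (SE 0.22, edgeR adjusted p = 0.86). Chd8, a CHD ATPase, had 71.1, 73.1, 79.9 and 83.2 normalised counts with Kdm5c siRNA, against 101.6, 81.9, 102.2 and 107.9 with scramble, or -0.35 as a log2 fold change (SE 0.16, edgeR adjusted p = 0.89). Here too a single pair of libraries overlapped.

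Brpf3, another HBO1 scaffold, went the other way on day -1, with 58.1, 84.7, 61.7 and 61.5 normalised counts with Kdm5c siRNA, against 55.6, 46.5, 40.6 and 56.6 with scramble. Arid4a, a subunit of the SIN3 deacetylase complex, had 67.1, 91.6, 83.95 and 74.5 with Kdm5c siRNA, against 93.0, 107.0, 96.6 and 97.2 with scramble. Neither gene's arms overlapped, as in 3.27% of all peaks tested that day. The log2 fold changes were 0.40 (SE 0.19, edgeR adjusted p = 0.91) for Brpf3 and -0.32 (SE 0.16, edgeR adjusted p = 0.92) for Arid4a. Kat6a (-0.28), the MOZ acetyltransferase, Phf5a (-0.52), Phf7 (-0.49) and the BAF subunit gene Smarce1 (0.69, at 15.2 and 9.38 mean normalised counts with Kdm5c siRNA and scramble) followed, each with overlapping arms. Kat6a was at -0.17 without Kdm5c siRNA replicate 1, and Phf7 at -0.28 without scramble replicate 4 and -0.75 without scramble replicate 2.

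On day 0, 72 hours after transfection, Baz1b had the smallest p. It encodes WSTF, the partner of Smarca5 in the WICH remodelling complex. The 3 libraries with Kdm5c siRNA had 113.9, 120.0 and 128.5 normalised counts, against 134.9, 171.7, 159.7 and 160.9 with scramble, and the log2 fold change was -0.37 (SE 0.15, edgeR adjusted p = 0.74). Phf6, an X-linked PHD-finger gene, had 41.5, 46.5 and 53.8 normalised counts with Kdm5c siRNA, against 59.6, 64.9, 67.6 and 63.0 with scramble (log2 fold change -0.40, SE 0.21, edgeR adjusted p = 0.85). Kat2a, the GCN5 acetyltransferase, had 21.4, 36.3 and 20.9 with Kdm5c siRNA, against 15.7, 17.6, 19.7 and 16.1 with scramble (log2 fold change 0.59, SE 0.36, edgeR adjusted p = 0.89). These were the 3 members of 72 whose arms did not overlap on day 0, and 6.22% of all peaks tested that day did not overlap either. Hdac11 (-0.41), Phf20l1 (-0.34), Smarce1 (-0.71), Kat6a (-0.25) and Phf21b (-0.38) completed the 8 smallest p-values, with overlapping arms. Without Kdm5c siRNA replicate 2, Kat2a was at 0.28, Phf20l1 at -0.16, Smarce1 at -0.45 and Kat6a at -0.40. Without Kdm5c siRNA replicate 1, Kat6a was at -0.15, Phf21b at -0.21 and Hdac11 at -0.65, and without Kdm5c siRNA replicate 4, Phf21b was at -0.64 and Hdac11 at -0.25. Hdac11 ranged from -0.63 to -0.23 when scramble replicate 1, 3 or 4 was left out.

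**Figure D3:**
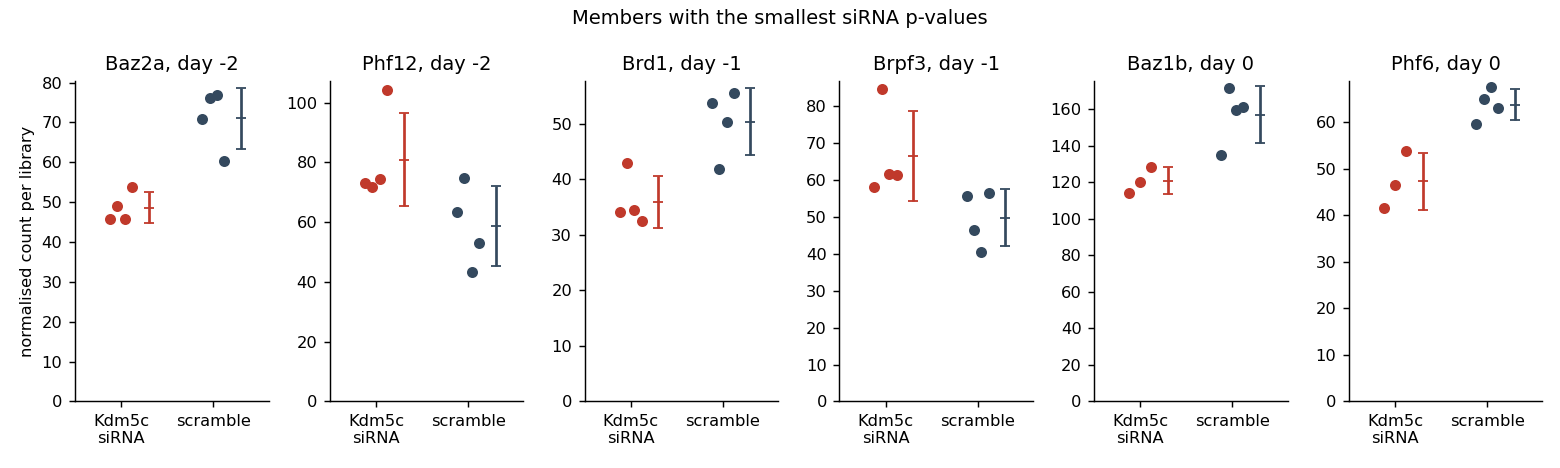
Normalised counts per library of 6 members with small siRNA p-values on the day named, with Kdm5c siRNA (red) left of scramble (dark blue); points are libraries and bars beside them the mean ± SD. The arms keep apart for Baz2a, Brpf3, Baz1b and Phf6 and overlap for Phf12 and Brd1; none of the 6 passed the adjusted test.

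Direction was compared over the 3 days. Of 67 members tested on all 3 days, 9 were above 0 and 13 below 0 on every day, which is 32.8%, against 26.7% of 8130 other named genes. The steadiest was Arid3b, an ARID DNA-binding gene, with log2 fold changes of 0.27, 0.42 and 0.39 on days -2, -1 and 0, followed by Phf5a with -0.30, -0.52 and -0.14. Most families kept no direction over the days. Medians on days -2, -1 and 0 stayed above 0 for Polycomb Cbx genes (0.15, 0.14 and 0.02) and HP1 genes (0.15, 0.10 and 0.03). For antisense RNA genes they stayed below 0 (-0.12, -0.20 and -0.03). Each of these sets had at most 4 genes tested on a day, and the median of every other family changed sign. The 5 other ARID genes were all above 0 on day -2, with a median of 0.13, and 1 of 5 was on day 0. PHF genes had medians of -0.001, 0.05 and -0.10, and 10 of 13 were below 0 on day 0. The CHD genes had medians of 0.03, -0.03 and -0.04, and the acetyltransferases 0.01, -0.17 and 0.05.

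Among genes that work with the members, none was called either. A list of 138 partners (BAF, ISWI, NuRD, INO80, SIN3, Polycomb and HP1 partners, other bromodomain genes and other acetyltransferase complex genes) had 115, 104 and 108 tested on days -2, -1 and 0. edgeR called 0 of them on each day. At an unadjusted p of 0.05 there were 4 higher and 3 lower with Kdm5c siRNA on day -2, day -1 had 4 of each, and day 0 had 1 of each. Of all peaks, 4.63%, 5.38% and 5.99% passed that level in either direction. The smallest p on day -2 was that of Ing5, a reader subunit of acetyltransferase complexes, with 129 ± 21.2 normalised counts with Kdm5c siRNA and 167 ± 24.6 with scramble (SD, n = 4 each), and Dpf1 (log2 fold change 0.61) and Pcgf3 (-0.34) came next. On day -1 it was that of Actr6, a subunit of the SRCAP complex, with 14.8 ± 2.73 with Kdm5c siRNA and 26.9 ± 2.61 with scramble (SD, n = 4 each), ahead of Atrx (-0.86) and Chaf1a (0.59). On day 0 the order was Rbbp4 (-0.34), Pbrm1 (0.47) and Tada1 (-0.26).

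The second comparison follows the members' peaks over the days before induction, in each arm apart. Those named for Baz2b, Smarcd2, Phf21b and Sirt1 cover no listed start of their gene, so their changes cannot be placed at its promoter. Arid2 and Phf3 have no listed start, and the Kat8 peak did not cover its start on day -1. The comparison used 13674 peaks matched between the days by a reciprocal overlap of at least 50%, among them 53 members. They entered 1 edgeR fit over all 23 libraries, and its normalised counts are on a scale common to the days. Fold changes are relative to the bulk of these peaks. Day cannot be told apart from hours after transfection, nuclear depth, mitochondrial share or whatever else differed between the collections. From day -2 to day 0, Smarcad1, an ATPase that helps to keep heterochromatin through replication and takes part in DNA end resection, rose in both arms. With Kdm5c siRNA its libraries had 75.04, 75.4, 92.4 and 80.3 normalised counts on day -2, then 117.1, 96.1, 103.2 and 118.4 on day -1, then 135.9, 156.1 and 147.4 on day 0. With scramble they had 95.2, 81.4, 109.4 and 59.8 on day -2, then 120.7, 110.1, 108.4 and 110.0 on day -1, then 180.0, 145.7, 130.9 and 159.4 on day 0. Every library of day 0 lay above every library of day -2 in both arms. The log2 fold change of day 0 over day -2 was 0.86 with Kdm5c siRNA (SE 0.15, edgeR adjusted p = 6.57e-06) and 0.84 with scramble (SE 0.14, edgeR adjusted p = 1.95e-06).

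Smarca2 was called as well, with smaller changes. With Kdm5c siRNA its libraries had 160.1, 169.7, 157.0 and 157.7 normalised counts on day -2, then 182.2, 183.1, 211.7 and 181.8 on day -1, then 255.1, 197.7 and 249.1 on day 0. With scramble they had 125.9, 155.6, 155.7 and 168.9, then 179.1, 194.8, 207.9 and 227.0, then 218.3, 187.3, 165.2 and 257.0. Days 0 and -2 kept apart with Kdm5c siRNA and overlapped at 1 library with scramble. The log2 fold change of day 0 over day -2 was 0.54 with Kdm5c siRNA (SE 0.13, edgeR adjusted p = 0.00129) and 0.44 with scramble (SE 0.12, edgeR adjusted p = 0.00584). With peaks matched at 80% overlap the values were 0.44 with Kdm5c siRNA (edgeR adjusted p = 0.0144) and 0.32 with scramble (edgeR adjusted p = 0.0669), so the scramble call was lost, as it was without scramble day 0 replicate 4 (0.32).

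Between day -2 and day 0, 5 of 53 members were called with Kdm5c siRNA and 9 of 53 with scramble, where 15.0% and 20.6% of all matched peaks were called. By direction, 7.27% of matched peaks were higher and 7.69% lower on day 0 with Kdm5c siRNA, and 9.16% and 11.5% with scramble. Of the members called, 3 were higher and 2 lower with Kdm5c siRNA, and 8 were higher and 1 lower with scramble. Other named genes also lay above the bulk. Their median log2 fold change was 0.04 with Kdm5c siRNA and 0.08 with scramble, against 0.01 and 0.14 for members. With scaling taken from peaks with a gene alone, 6 members were called with scramble, 5 higher and 1 lower. Of all 13674 matched peaks, 741 were then higher and 1907 lower. With Kdm5c siRNA, Smarcad1, Smarca2 and the PBAF subunit gene Arid2 (log2 fold change 0.52) rose, and Smarcd2 (-0.82), a BAF subunit gene, and Ino80 (-0.56) fell. With scramble, Smarcad1, Smarca2, Arid2 (0.50), Phf21b (0.70), Phf3 (0.58), Baz2b (0.46), Chd6 (0.44) and Chd9 (0.39) rose and Smarcd2 (-0.54) fell. With each library left out in turn, the calls of Smarcad1 in both arms, of Smarca2 and Smarcd2 with Kdm5c siRNA and of Arid2, Chd6 and Phf3 with scramble were made in 23 of 23 fits, and the other calls in 16 to 22. Most of these fits left out a library outside the groups compared. A lost call was thus lost in a larger part of the fits that bear on it. The comparison over both steps was added after the steps between neighbouring days had been seen.

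The width of a peak, which had its own boundaries in each day's table, moved with these counts. Over the 53 members, the log2 ratio of widths and the scramble log2 fold change of counts had Pearson correlations of 0.67, 0.62 and 0.50 for day -1 against day -2, day 0 against day -1 and day 0 against day -2, across genes that share libraries. In other named genes they were 0.58, 0.55 and 0.56. Of the calls above, those of Smarcad1 and Smarca2 in both arms, and of Phf3 and Chd6 with scramble, remained when the log of the peak width entered the fit as an offset, and those of Arid2, Smarcd2, Ino80, Phf21b, Baz2b and Chd9 did not. Arid4b was added in both arms, and Brpf3 and Smarca5 with scramble, for 3 calls with Kdm5c siRNA and 7 with scramble. Of all 13674 matched peaks, the offset fit called 1147 with Kdm5c siRNA (904 higher, 243 lower) and 2122 with scramble (1465 higher, 657 lower). The members it called were all higher. With the offset the median of all peaks stood at 0.10 with Kdm5c siRNA and 0.12 with scramble, and the tests took no account of that rise. Relative to that median, Smarcad1 then stood at 0.63 and 0.60 (edgeR adjusted p = 0.000254 and 8.83e-05 against no change) and Smarca2 at 0.41 and 0.29 (edgeR adjusted p = 0.00414 and 0.0135). The Smarcad1 peak was 908, 834 and 988 bases wide on days -2, -1 and 0, and that of Smarca2 754, 923 and 768.

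**Figure D4:**
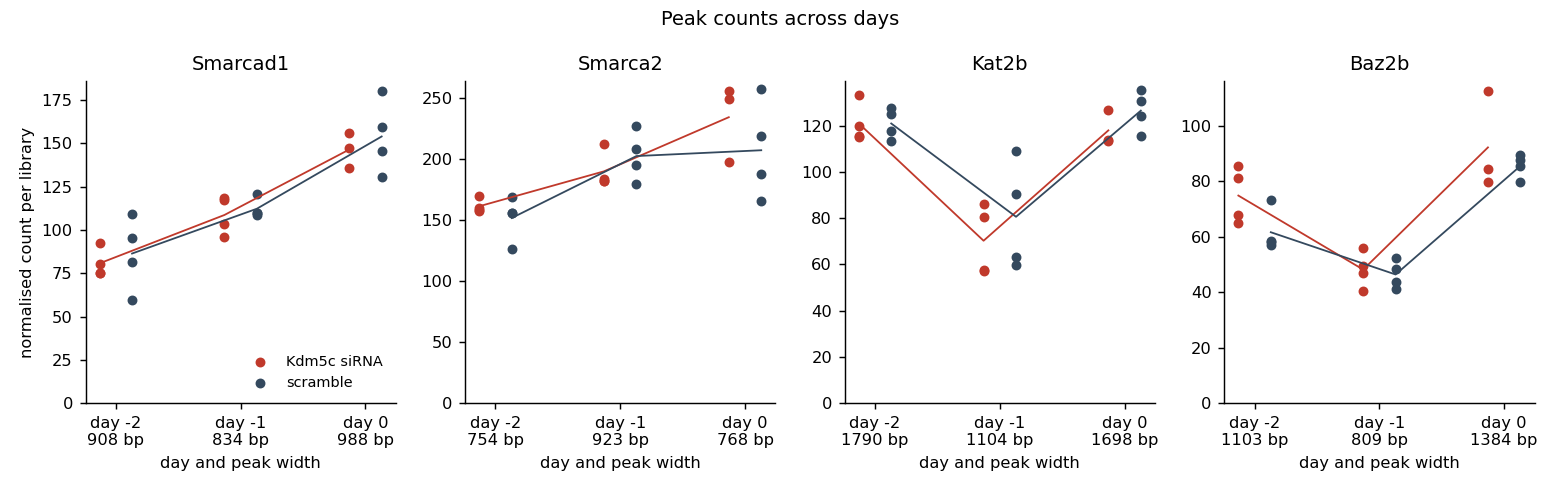
Normalised counts per library of 4 member peaks on days -2, -1 and 0, Kdm5c siRNA (red) left of scramble (dark blue), lines joining the means, with the width of the peak in bases under each day. Smarcad1 and Smarca2 end higher than they began, with log2 fold changes of 0.86 and 0.84, and 0.54 and 0.44; Kat2b and Baz2b dip on day -1, when their peaks were also narrower.

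Between neighbouring days fewer members were called. For day -1 against day -2, 3 of 53 members fell with Kdm5c siRNA, where 6.37% of matched peaks were called (3.57% higher, 2.80% lower). They were Kat8 (log2 fold change -1.30), the MOF acetyltransferase of H4 lysine 16, Kat2b (-0.76), the PCAF acetyltransferase, and Baz2b (-0.63), a bromodomain partner of ISWI ATPases. The Kat8 peak was 431 bases wide on day -2 and 218 on day -1. On day -1 it averaged only 11.3 in the authors' normalised signal over both arms. With scramble, Kat2b fell (-0.59) and Smarca2 rose (0.40), where 5.73% of matched peaks were called (3.17% higher, 2.57% lower). For day 0 against day -1, Baz2b (0.91) and Kat2b (0.74) rose with Kdm5c siRNA, where 3.79% were called (1.51% higher, 2.28% lower). With scramble, Baz2b (0.89), Kat2b (0.65), Brpf3 (0.63), Arid2 (0.45) and Smarcad1 (0.45) rose, where 6.86% were called (2.70% higher, 4.16% lower). Adjusted p-values are those of edgeR in all 4 comparisons. With each library left out in turn, the calls of Kat2b (except with scramble for day -1 against day -2) and of Baz2b for day 0 against day -1 were made in 23 of 23 fits, and the other calls in 15 to 21. Here too most fits left out a library outside the groups compared.

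Kat2b shows how a peak's boundaries moved with its counts. With Kdm5c siRNA it had 115.1, 115.6, 119.7 and 133.2 normalised counts on day -2, then 85.9, 57.0, 57.5 and 80.5 on day -1, then 113.7, 113.5 and 126.5 on day 0. With scramble it had 117.7, 125.1, 127.6 and 113.1, then 59.7, 108.9, 90.4 and 63.3, then 124.2, 135.3, 115.6 and 130.6. Day -1 was lowest in both arms with no overlap with the other days. The peak was 1790, 1104 and 1698 bases wide on days -2, -1 and 0, and that of Baz2b 1103, 809 and 1384. None of the calls between neighbouring days remained with the width offset, and the cause of the change in width was not tested. With the offset, Smarcad1 and Arid4b, a SIN3 subunit gene, were called higher on day -1 than on day -2 in both arms. Smarca5 was called higher on day 0 than on day -1 in both arms. For day -1 against day -2 the median of all peaks then stood at 0.16 in each arm. That fit called 1216 (1134 higher, 82 lower) and 1265 (1147 higher, 118 lower) of 13674 matched peaks for this step with Kdm5c siRNA and scramble. For day 0 against day -1 it called 264 (66 higher, 198 lower) and 673 (190 higher, 483 lower). The Arid4b peak was 1741, 1085 and 1010 bases wide, while its counts gave log2 fold changes of -0.04 with Kdm5c siRNA and 0.10 with scramble between days -2 and -1. At Chd4, which had no match over the 3 days, the peak was 1383, 703 and 227 bases wide on days -2, -1 and 0, so its counts cannot be compared between days.

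**Figure D5:**
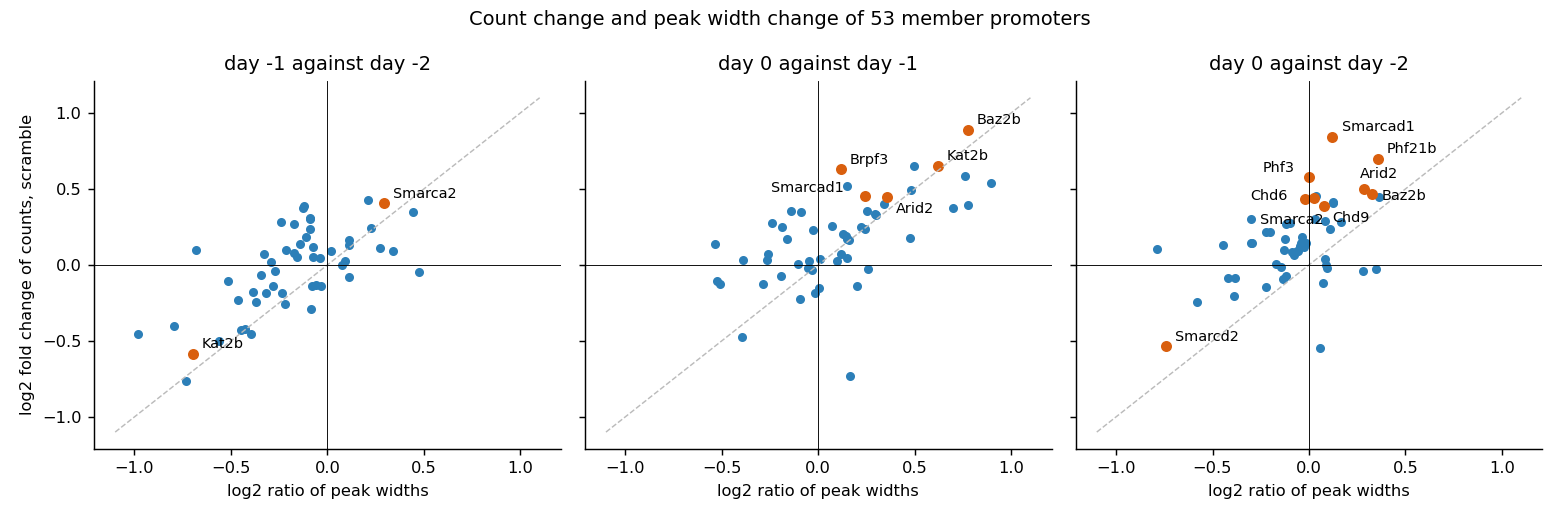
Log2 fold change of counts with scramble against the log2 ratio of peak widths for the 53 matched members, in 3 pairs of days; orange points passed an edgeR adjusted p of 0.05 and are named, and the dashed line marks equal ratios. Counts and widths moved together (Pearson r of 0.67, 0.62 and 0.50), which does not place the points on the line. In the right panel every named point stands above the line, and so does Arid4b, which is not named there.

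The arms share no libraries and were compared over the days. Both were counted within the same boundaries on each day, and depth and mitochondrial share also changed with the day. The part of these in the agreement of the arms was not tested. The change from day -2 to day 0 had the same sign in 37 of 53 members, which is 69.8%, as in 69.8% of 6769 other named genes. The changes of the arms had a Pearson correlation of 0.70 over members and 0.59 over those other named genes. A test of whether the siRNA effect differed between days (an interaction with 2 degrees of freedom in the same edgeR fit) called 0 of 53 members and 0 of 13674 matched peaks, and DESeq2 called 0 members. At an unadjusted p of 0.05 there were 4 members (Baz1b, Brpf3, Hdac11 and Phf21b), where 5.65% of matched peaks passed that level. For Baz1b the siRNA log2 fold change on day 0 minus that on day -2 was -0.52 (SE 0.19, edgeR adjusted p = 0.68).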

How the data were processed

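ATAC-seq libraries of 3T3-L1 cells (23 in 6 groups) were analysed. The authors deposited 1 table of raw read counts per peak and 1 of normalised signal per day, and the named peaks come from the latter. Per the submitters' processing notes the tools were DESeq2 1.24.0, HTSeq 0.9.1, MACS2 2.1.1, Bowtie2 2.2.9 and cutadapt 2.3, with builds GRCm38 and mm10. The normalised signal, deposited by the authors, served only to choose each gene's peak. Raw counts were tested with edgeR 4.0.16 in R 4.3.3 (TMM, filterByExpr, quasi-likelihood F test, Benjamini-Hochberg over all peaks). Each day was fitted apart, and days were compared in 1 fit on peaks matched with bedtools 2.31.1 at 50% reciprocal overlap, since each day's counts use that day's boundaries. An SE is the log2 fold change divided by the square root of F. DESeq2 1.42.0 and other scalings, filters and overlaps were alternatives. Members named were, per day, the 8 with the smallest siRNA p, the 6 highest and 4 lowest per kb, every called member and 1 central member per family, apart from some that are not reported here; partners were the 3 with the smallest p per day. Others (such as Arid3b and Arid4b) were named after their values were seen. The members and lists were chosen with earlier results of these data known, and the comparison of day 0 with day -2 was added after seeing the data. The scripts' tests were checked on simulated data.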

Additional observations from a re-analysis of the deposited data

Results flagged for a closer look

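In 5 of 65 groups of 4 libraries, 1 library stood apart from the other 3 by Dixon's criterion, where chance gives about 1 in 20 groups. Phf12 had 104 normalised counts in 1 library with Kdm5c siRNA on day -2, against 71.7 to 74.5 in the others. Brpf3 had 84.7 in 1 library with Kdm5c siRNA on day -1, against 58.1 to 61.7. On the scale common to the days, Smarca2 had 212 in 1 library with Kdm5c siRNA on day -1, against 182 to 183. Smarcad1 had 121 in 1 scramble library on day -1, against 108 to 110. Baz2b had 73.4 in 1 scramble library on day -2, against 57.0 to 58.4.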

How the results depend on the processing

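The siRNA calls among members were 0 on each day under every alternative run except scaling to total counts, mitochondrial peaks included. That scaling gave 8 on day -2, where 1224 of all 49455 peaks tested were called. It put the median of all peaks at 0.44, 0.38 and 0.56 on days -2, -1 and 0. For day -1 against day -2, day 0 against day -1 and day 0 against day -2, that scaling called 53, 31 and 45 members with Kdm5c siRNA (medians of all peaks -1.63, 0.66 and -0.96) and 53, 10 and 50 with scramble (-1.52, 0.46 and -1.05). Of all 13674 matched peaks it called 13461, 5670 and 10736 with Kdm5c siRNA and 13370, 1720 and 11964 with scramble. An overlap of 80% left 23 members and 0 calls between neighbouring days, and 2 calls for day 0 against day -2 with each siRNA (Smarca2 and Smarcad1 with Kdm5c siRNA, Phf3 and Smarcad1 with scramble). At that overlap 292 of 4013 matched peaks were called for day 0 against day -2 with Kdm5c siRNA and 424 with scramble. The width offset gave 3 calls for day 0 against day -2 with Kdm5c siRNA and 7 with scramble. With scramble it also gave 5 for day -1 against day -2 and 1 for day 0 against day -1. In that order it called 1147, 2122, 1265 and 673 of all 13674 matched peaks, of which 904, 1465, 1147 and 190 were higher. Relative to the median of all peaks, it reversed Smarca2 with scramble to -0.043 for day -1 against day -2, and Smarcd2 with scramble to 0.083 for day 0 against day -2. TMM over peaks with a gene gave 3 calls for day 0 against day -1 with scramble and 6 for day 0 against day -2. It called 1047 and 2648 of all 13674 matched peaks there. The cause was not tested. Summing all peaks of a gene put the members' share on day -1 at 0.390% with Kdm5c siRNA and 0.391% with scramble. Leaving out 1 library gave 2 to 4, 2 to 3 and 3 to 6 calls with Kdm5c siRNA for the same 3 comparisons, and 0 to 2, 2 to 5 and 5 to 9 with scramble. Counts moved by over 1.5 times without Kdm5c siRNA day 0 replicate 4 (3 calls against day -2), scramble day 0 replicates 2 or 3 (5 against day -2) or 2 (3 against day -1), and for scramble day -1 against day -2 without day -2 replicates 1 or 2 or day -1 replicates 1, 2 or 3 (1 call) or 4 (0). Without scramble day -1 replicates 2 or 3 there were 2 calls, and without 4 there were 3, for day 0 against day -1. Smarcad1 was called for day 0 against day -2 without each library in turn, at 0.82 to 0.94 with Kdm5c siRNA and 0.68 to 0.99 with scramble. Same-numbered libraries correlated at -0.04 to 0.15, so the numbers share no evident pairing. With a replicate block there were 0 siRNA calls, and 5 and 9 calls for day 0 against day -2 with Kdm5c siRNA and scramble. For the latter, 1969 and 2781 of all 13674 matched peaks were called.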
